A study of Mus musculus with 11 samples.

Results

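The genes described here are 8 genes by which follicular dendritic cells and the stroma of lymphoid organs are recognised: Cxcl13, Ccl19, Madcam1, Vcam1, Clu, Mfge8, Fcgr2b and Ltbr. They were chosen by name, after their signals on these arrays had been seen, and were read on 11 expression arrays from murine B cell lymphomas. Every probe set annotated to 1 of these genes and to no other gene was taken, which gave 16 probe sets for 7 of the 8 genes, out of 22626 non-control probe sets and 12393 named genes on the array. Ccl19 had no probe set of its own. All 16 probe sets lay in the upper 60% of probe sets by mean log2(signal + 16), the part of the array that was tested. Madcam1 lay just inside this limit, at rank 13348 of 13576 tested probe sets, and no other probe set of these genes ranked below 11807. Over the 10 arrays without transitional 2 the other 15 probe sets would still pass and Madcam1 would not, so Madcam1 was tested through the array on which it was highest.

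The lymphomas arose in mice that carry E-mu-BRD2, a transgene that puts BRD2 under the enhancer of the immunoglobulin heavy chain and so acts in B lineage cells, on the FVB background. The labels divide them into 6 marginal and 5 transitional lymphomas, and 1 array was hybridised for each. Spleen enlargement was recorded in words: marginal in marginal sample 1, mild in marginal samples 2, 3 and 4 and transitional sample 3, moderate in marginal samples 5 and 6, moderately severe in transitional samples 4 and 5, and severe in transitional samples 1 and 2. The clinical sign was a failure to nest in marginal samples 2 and 3 and in all 5 transitional samples, a neck, leg or haunch tumor in marginal samples 1, 4 and 5, and paralysis in marginal sample 6. Immunoglobulin clonality was oligoclonal in all 11 samples. The labels name no tissue and no animal ages or numbers, and no lymphoma without the transgene and no normal B cell sample was analysed here. Nothing in the labels shows how many mice or preparations lie behind the samples, so the errors below measure the spread between these samples.

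Follicular dendritic cells are stromal cells of the B cell follicle that hold antigen on their surface through complement and Fc receptors. Lymphotoxin, made by B cells, binds the lymphotoxin beta receptor on stromal cells. That receptor signals through noncanonical NF-kB and keeps up the expression of the chemokines and adhesion molecules that arrange follicles and T cell zones.

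The pattern common to most of these genes was 1 lymphoma. On transitional 2, a lymphoma with a severely enlarged spleen, Cxcl13, Madcam1, Vcam1, Clu and Mfge8 all had signals between 5.47 and 20.2 times the next highest array, by the brightest probe set of each gene. Ltbr was high on transitional 2 but not highest, and Fcgr2b was within the range of the other arrays. Transitional 1, the other lymphoma with a severe spleen, had none of these high signals except a modestly raised Madcam1. Values below are MAS5 signals, a linear scale of probe set brightness on which signals of different probe sets cannot be compared, and the samples are called marginal 1 to 6 and transitional 1 to 5. The members were proposed from these signals, so their differences between classes and grades are described with a standard error (SE) and without a test.

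Cxcl13 encodes the chemokine that draws CXCR5-bearing B cells into follicles. The signal of its brightest probe set (1417851_at) was 25.4, 69.4, 102.6, 122.5, 116.3 and 544.1 on marginal 1 to 6, and 43, 6698, 165.4, 72.5 and 32.8 on transitional 1 to 5. Transitional 2 was 76.5 times the median of the other 10 arrays and 12.3 times marginal 6, which was next. Among the other 10 arrays Cxcl13 still spanned 21.4-fold, from marginal 1 to marginal 6, and the classes overlapped throughout. The other Cxcl13 probe set (1448859_at) had the same highest arrays, with 3205 on transitional 2 and 448 on marginal 6, and correlated with the first at r = 0.94 over the 10 arrays without transitional 2.

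Ccl19, a ligand of CCR7 made by T zone stroma, could not be read alone. The only probe set that lists it (1449277_at) lists 10 gene names, among them Ccl19 and its near-identical copies, and its signal is assigned to no gene here. Its signal was 1737 on transitional 2, against 72.9 on marginal 4, the next highest, and 3.5 on marginal 6, the lowest.

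Madcam1 and Vcam1 encode adhesion molecules that bind alpha4 integrins on lymphocytes. Madcam1 (1425253_a_at) read 62, 53.3, 26.1, 73.9, 48.9 and 61.6 on marginal 1 to 6, and 123.2, 673.9, 49.1, 24.7 and 36 on transitional 1 to 5. Its highest signals were those of transitional 2 and transitional 1, the lymphomas with severe spleens, and transitional 2 was 13.2 times the median of the other 10 arrays. The remaining 9 arrays lay between 24.7 and 73.9 with the classes mixed.

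Vcam1 (1448162_at) read 461.5, 1439, 349.1, 170.2, 144.4 and 310.8 on marginal 1 to 6, and 97.8, 8522, 70.1, 575.6 and 597.5 on transitional 1 to 5. It was 25.8 times the median of the others on transitional 2 and 5.92 times marginal 2, which stood next. The 2 classes overlapped, and both the highest and the lowest array were transitional. Outside transitional 2 Vcam1 was more variable than Clu or Mfge8, spanning 20.5-fold from transitional 3 to marginal 2. The other Vcam1 probe sets (1415989_at and 1451314_a_at) also had transitional 2 first, marginal 2 second and transitional 3 last. On them transitional 2 was 2.56 and 3.62 times marginal 2, so the size of the lead depended on the probe set.

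Clu encodes clusterin, a secreted chaperone abundant in follicular dendritic cells. Its brightest probe set (1454849_x_at) read 429.5, 178.1, 218, 323.4, 318.8 and 224.5 on marginal 1 to 6, and 162.9, 8668, 227, 307.8 and 183 on transitional 1 to 5. The other 10 arrays lay within 2.64-fold of each other, and transitional 2 was 20.2 times the highest of them, marginal 1. All 4 Clu probe sets had transitional 2 highest, at 10.7 to 20.2 times the next array. They differed in which array came next, marginal 1 in 2 of them and marginal 5 in the other 2, where marginal 5 read 708.6 and 564.2. The 3 probe sets whose names end in x_at can also bind related sequences. The fourth (1418626_a_at) does not carry that mark, and transitional 2 was 18.6 times the next array on it.

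Mfge8 encodes a secreted bridging protein through which tingible body macrophages take up apoptotic cells, and in follicles it is made by follicular dendritic cells. Its probe set (1420911_a_at) read 148.1, 220.8, 155.8, 260.3, 476.1 and 173.8 on marginal 1 to 6, and 194.7, 4996, 178.6, 89.9 and 92 on transitional 1 to 5. Transitional 2 was 28.4 times the median of the other 10 arrays and 10.5 times marginal 5. The lowest signals were those of transitional 4 and 5, which lay below all 6 marginal lymphomas.

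Fcgr2b encodes the inhibitory Fc receptor for IgG, carried by B cells, myeloid cells and follicular dendritic cells. It was bright on all arrays and did not share the pattern of the other genes. Its brightest probe set (1435477_s_at) read 1553, 3076, 2312.5, 2748, 3266 and 801.1 on marginal 1 to 6, and 1407, 1603, 3607, 998.5 and 901 on transitional 1 to 5. Transitional 2 lay a little below the median of the others (1933), transitional 3 was highest, and marginal 6, transitional 5 and transitional 4 were lowest. On the other 3 Fcgr2b probe sets transitional 3 was again highest and transitional 2 lay between 0.9 and 1.1 of the median of the others.

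Ltbr, the lymphotoxin beta receptor itself, spanned the smallest range over the 11 arrays, 3.78-fold. Its probe set (1416435_at) read 245.4, 108.5, 89.4, 122.1, 114.3 and 64.9 on marginal 1 to 6, and 71.3, 228.4, 126.8, 110.6 and 132.2 on transitional 1 to 5. Marginal 1 and transitional 2 were the high arrays and the other 9 lay between 64.9 and 132.2. Transitional 2 was 2.03 times the median of the others.

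**Figure D1:**
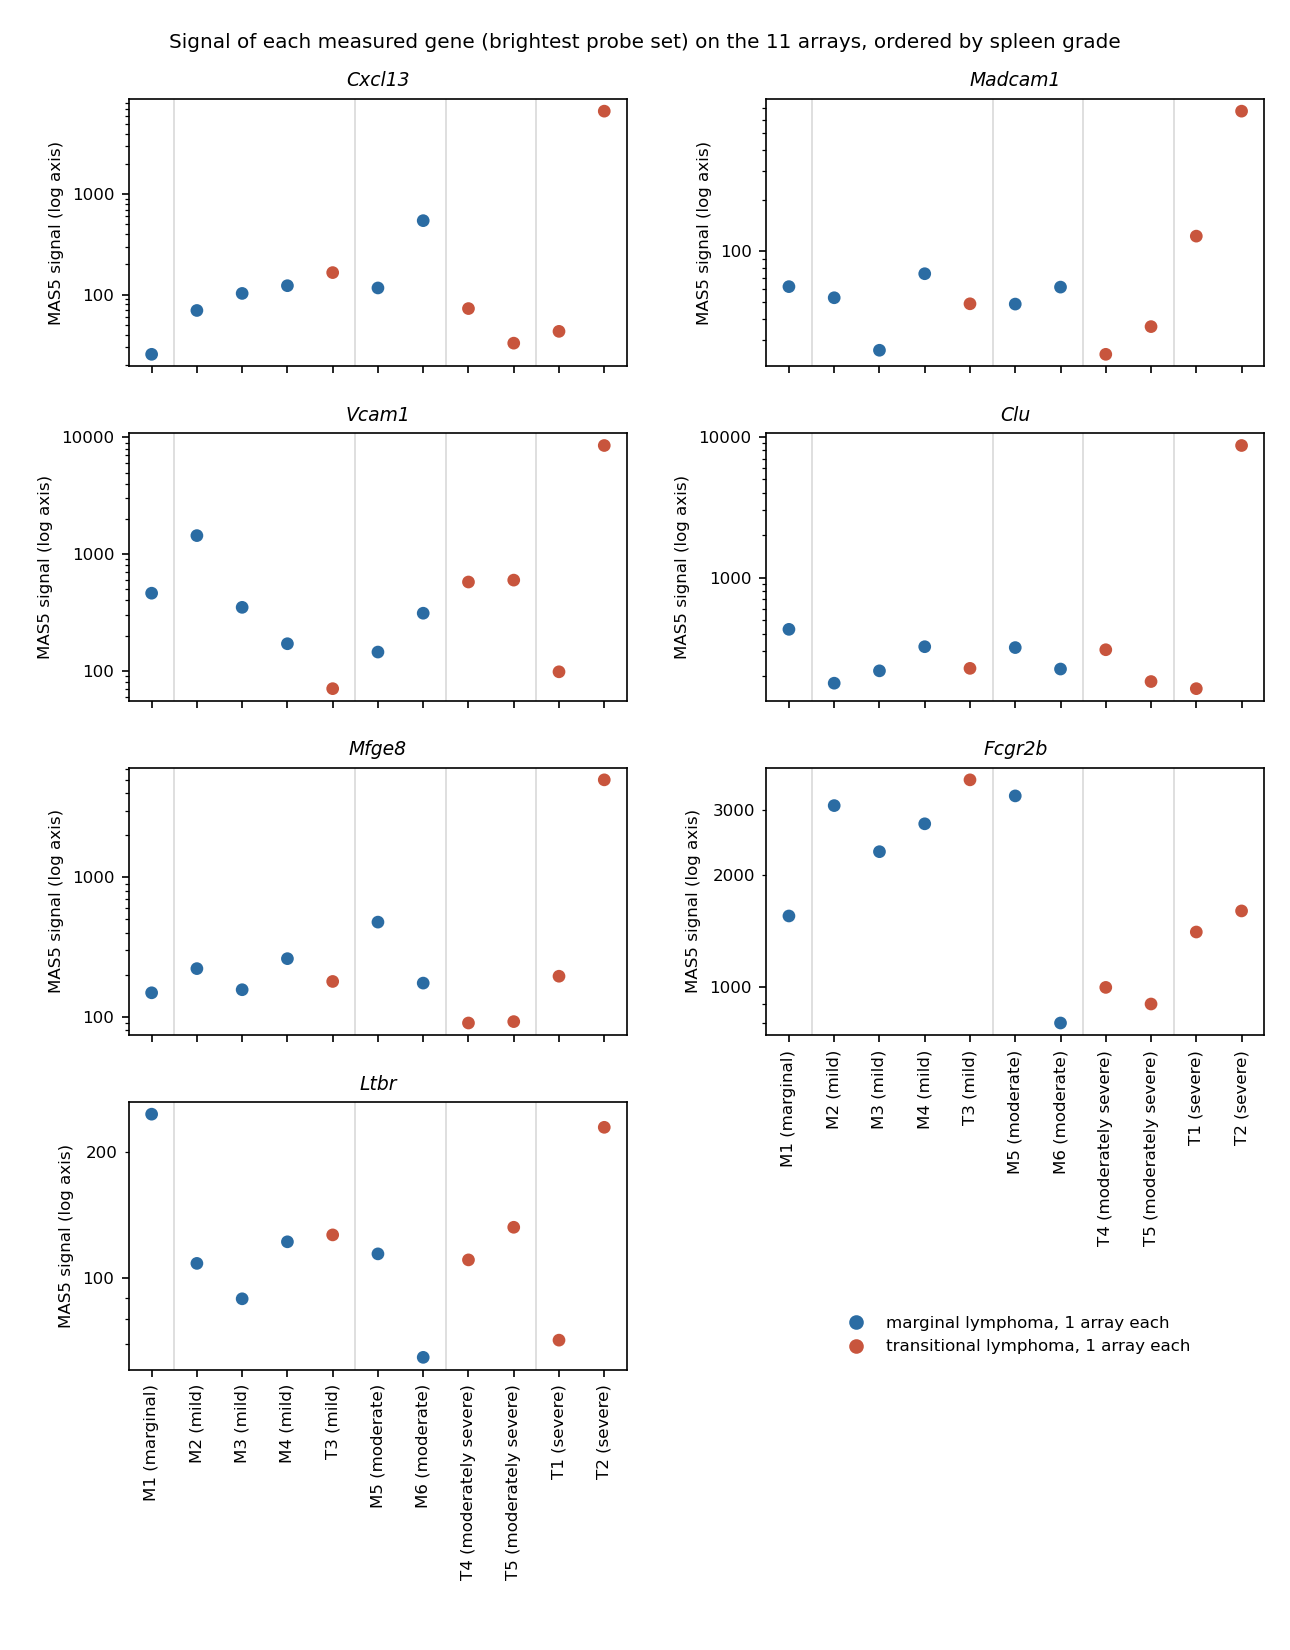
MAS5 signal on a log axis of the brightest probe set of each of the 7 measured genes, 1 point for each array, with marginal (M) and transitional (T) lymphomas in colour and the arrays ordered by recorded spleen grade. Transitional 2, at the right edge, stands above all other arrays for Cxcl13, Madcam1, Vcam1, Clu and Mfge8, while Fcgr2b is highest on transitional 3 and Ltbr on marginal 1.

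Transitional 2 was the highest array by at least 4-fold, on log2(signal + 16), for 47 of the 13576 tested probe sets, or 0.346%. Of these, 9 were probe sets of the genes described here and belonged to Cxcl13, Madcam1, Vcam1, Clu and Mfge8. The members were chosen on these signals, so the share says nothing about them beyond what chose them. No other array led by 4-fold at more than 7 probe sets, and none of those was a probe set of these genes. Transitional 2 had the highest median signal of all non-control probe sets, 151 against 98.8 to 144 on the others. It was the highest array for 8.28% of tested probe sets, against 1.44% to 14.4% for the others, and over the tested probe sets its median difference from the median of the other 10 arrays was 0.02 on the log2 scale. Its ratios of 3-prime to 5-prime control signal, 0.661 for Gapdh and 1.18 for actin, lay within those of the other arrays, which ran from 0.635 to 0.839 and from 1.11 to 1.44.

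The promoter sequences of Cxcl13, Madcam1 and Mfge8 are shown because these genes had their highest signal on the same lymphoma and because genes induced through the lymphotoxin beta receptor are known to carry NF-kB sites near their starts. Each is the 250 bases before the RefSeq start in assembly GRCm38.p6, read 5-prime to 3-prime on the strand of the gene. Cxcl13 is chr5:95956689-95956938 on the plus strand, Madcam1 chr10:79664309-79664558 on the plus strand and Mfge8 chr7:79149061-79149310 on the minus strand. Capitals mark every match to GGGNNNNNCC on either strand, the loose outline of an NF-kB element.
Cxcl13: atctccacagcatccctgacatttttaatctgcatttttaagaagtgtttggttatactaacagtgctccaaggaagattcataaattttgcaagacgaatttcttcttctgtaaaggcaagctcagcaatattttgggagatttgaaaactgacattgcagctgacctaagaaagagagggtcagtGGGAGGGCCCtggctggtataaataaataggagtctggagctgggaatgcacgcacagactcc
Madcam1: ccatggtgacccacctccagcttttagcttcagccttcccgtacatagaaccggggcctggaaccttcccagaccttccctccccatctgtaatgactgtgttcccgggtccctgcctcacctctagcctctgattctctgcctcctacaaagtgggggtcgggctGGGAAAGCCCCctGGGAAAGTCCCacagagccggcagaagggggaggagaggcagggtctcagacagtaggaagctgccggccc
Mfge8: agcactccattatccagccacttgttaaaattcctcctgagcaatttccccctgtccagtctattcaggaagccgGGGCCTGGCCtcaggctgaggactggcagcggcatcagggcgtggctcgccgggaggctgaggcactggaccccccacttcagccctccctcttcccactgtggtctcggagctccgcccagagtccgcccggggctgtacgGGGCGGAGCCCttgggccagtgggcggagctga
Madcam1 and Mfge8 each held 2 separate matches and Cxcl13 held 1, and the Madcam1 pair stood side by side. Of 32851 promoter windows of the same length in the RefSeq table, 45.8% held at least 1 match and 17.7% held 2 or more separate ones. All 6 of the genes that had a window (Cxcl13, Ccl19, Madcam1, Mfge8, Fcgr2b and Ltbr) held a match, including Fcgr2b and Ltbr, which did not peak on transitional 2. A match is a run of letters and was not tested as a binding site.

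Between classes, the mean log2(signal + 16) in transitional minus marginal lymphomas was 0.64 (SE 1.13) for Cxcl13, 0.63 (SE 0.62) for Madcam1 and 0.43 (SE 1.03) for Vcam1. It was 0.73 (SE 0.85) for the brightest Clu probe set, 0.34 (SE 0.85) for Mfge8, −0.47 (SE 0.42) for Fcgr2b and 0.12 (SE 0.33) for Ltbr (n = 6 marginal and 5 transitional arrays). The other Clu probe sets gave 0.67, 0.17 and 0.14, and the mean of all 4 gave 0.43 (SE 0.90), so the size for Clu depended on the probe set. The differences of Cxcl13, Vcam1, Clu, Mfge8 and Ltbr were smaller than their SE, and those of Madcam1 and Fcgr2b were slightly larger than theirs. For Fcgr2b this held on the brightest probe set only. Its other probe sets gave −0.28 (SE 0.39), −0.22 (SE 0.46) and −0.31 (SE 0.50), and the mean of all 4 gave −0.32 (SE 0.43). The fit over the whole array, with limma and Benjamini-Hochberg adjustment over all 13576 tested probe sets, called 0 of them between the classes (0%), with 454 at an unadjusted p under 0.05 and a smallest adjusted p of 0.999. The median difference over all tested probe sets was −0.06, and 42.4% of them were higher in transitional lymphomas.

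Without transitional 2 the class difference turned to −0.63 (SE 0.63) for Cxcl13, −0.05 (SE 0.37) for Madcam1, −0.59 (SE 0.72) for Vcam1, −0.32 (SE 0.28) for Clu, −0.68 (SE 0.35) for Mfge8 and −0.08 (SE 0.32) for Ltbr. So 6 of the 7 measured genes had a higher transitional mean with this array and a lower one without it. Fcgr2b stayed at −0.50 (SE 0.47) and kept its sign in all 23 settings tried, from −0.83 to −0.04. B cell markers were low on transitional 4 and 5. Without these arrays the difference was 1.70 for Cxcl13, 1.43 for Madcam1, 1.33 for Clu, 1.32 for Mfge8, 0.25 for Vcam1, 0.15 for Ltbr and −0.04 for Fcgr2b.

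**Figure D2:**
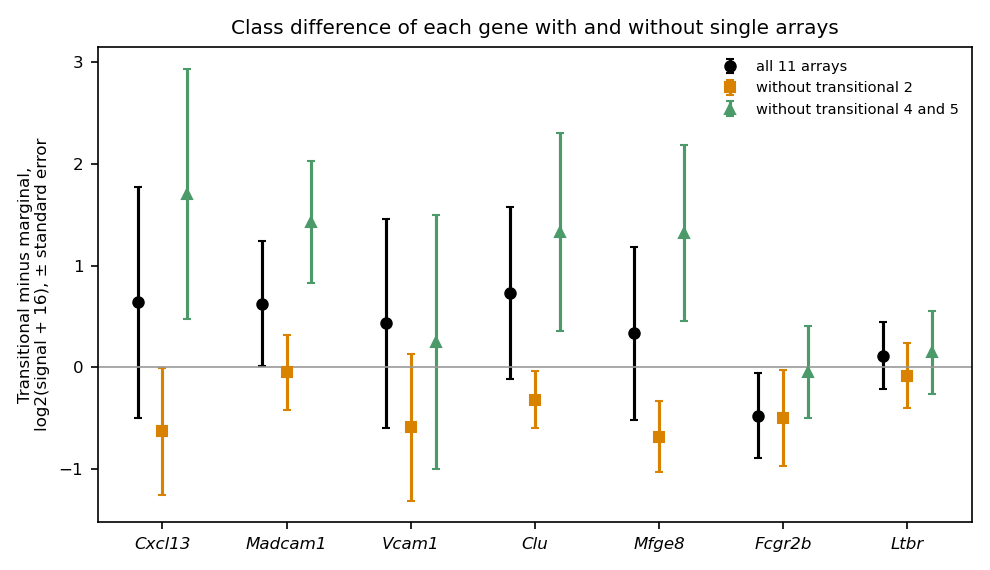
Mean difference in log2(signal + 16), transitional minus marginal, for the brightest probe set of each gene, with bars of ± 1 standard error from the limma fit. Circles use all 11 arrays, squares leave out transitional 2 and triangles leave out transitional 4 and 5. The squares lie at or below 0 for all 7 genes, from −0.68 for Mfge8 to −0.05 for Madcam1.

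Spleen grade gave a like picture. The arrays with a severe spleen had the highest and nearly the lowest Cxcl13 signals of the series, 6698 on transitional 2 and 43 on transitional 1. Mild spleens had Cxcl13 between 69.4 and 165.4 (n = 4), moderate ones 116.3 and 544.1, moderately severe ones 32.8 and 72.5, and the marginal spleen 25.4. Clu lay between 178.1 and 323.4 in the mild group and at 162.9 and 8668 in the severe one. Fcgr2b lay between 2312.5 and 3607 in the mild group, at 801.1 and 3266 in the moderate one, at 901 and 998.5 in the moderately severe one and at 1407 and 1603 in the severe one. Vcam1 spanned its whole range outside transitional 2 within the mild group, from 70.1 to 1439.

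Per step of the 5 grades the change in log2(signal + 16) was 0.59 (SE 0.41) for Cxcl13, 0.42 (SE 0.22) for Madcam1, 0.41 (SE 0.38) for Vcam1, 0.43 (SE 0.32) for Clu and 0.43 (SE 0.31) for Mfge8. It was −0.29 (SE 0.15) for Fcgr2b and −0.06 (SE 0.13) for Ltbr. With class in the model the slopes were 0.84 (SE 0.61) for Cxcl13, 0.50 (SE 0.33) for Madcam1, 0.69 (SE 0.45) for Mfge8 and −0.32 (SE 0.23) for Fcgr2b. They were 0.60 (SE 0.57) for Vcam1, 0.46 (SE 0.48) for Clu and −0.18 (SE 0.18) for Ltbr. All these slopes include transitional 2, which had a severe spleen, and slopes of these genes without it are not given. The limma fits called 0% of tested probe sets for the grade trend and 0% when class was added (0 probe sets each, with 292 and 298 at an unadjusted p under 0.05). In the second fit 1145 of 13576 probe sets were called without transitional 3, the only transitional lymphoma with a mild spleen, and 0 of them were probe sets of the members.

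The lymphotoxin pathway upstream of these genes was read by 13 tested genes, of which 0 were called by class or grade in limma. Of the 13, 3 were higher in transitional lymphomas, with a median difference of −0.33 against −0.06 over all tested probe sets. This rested on transitional 4 and 5, where the summed signal of the list was 6725 and 4825 against 13440 to 27697 on marginal lymphomas and 16078 to 20324 on the other transitional ones. Without them 10 of the 13 were higher in transitional lymphomas and the median was 0.13. B cell markers were low on the same arrays, and their part in this difference was not tested. Ltb, the membrane anchor of the lymphotoxin ligand, differed by −0.90 (SE 0.48), and Relb, a noncanonical NF-kB subunit, by −0.66 (SE 0.49), both with an adjusted p of 0.999 in limma. Without transitional 4 and 5 these were −0.07 and 0.13. Per grade step Map3k14, the NF-kB inducing kinase, changed by −0.25 (SE 0.15) and Tnfsf14, the ligand LIGHT, by −0.28 (SE 0.18). On transitional 2 the pathway genes lay a median of 0.44 above the median of the other arrays on the log2 scale. Lta, the secreted lymphotoxin subunit, was highest there, at 463.8 against a median of 134.8, though marginal 4 was close at 428.4. Birc2, an inhibitor of NF-kB inducing kinase, was also highest there (2015), and Tnfrsf1a read 755.4 against a median of 333.6. Ltb read 9394, between 1425 and 16268 on the others. None of the 13 was 4-fold or more above the median of the others, a size that 1.65% of all tested probe sets reached, so the count says little.

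Receptors, integrins and effectors that the member proteins act on likewise had no calls. Of 8 tested genes, 2 were higher in transitional lymphomas, with a median difference of −0.41 and 0 called in limma. Over all tested probe sets 42.4% were higher and the median was −0.06. Without transitional 4 and 5, where B cell markers were low, 3 of the 8 were higher and the median was −0.04. Cxcr5, the receptor of Cxcl13, differed by −1.17 (SE 0.66) between classes and −0.27 (SE 0.28) per grade step, and −0.05 between classes without transitional 4 and 5. It read 2644 on transitional 2 against a median of 2147 on the others. Inpp5d, the phosphatase SHIP1 recruited by Fcgr2b, differed by −0.64 (SE 0.31) between classes, and by −0.23 without transitional 4 and 5. Ccr7, the receptor of Ccl19, changed by −0.21 (SE 0.21) per grade step. All 4 activating Fc receptor genes were higher in transitional lymphomas, with a median of 0.36 and 0 calls, and this rested on transitional 2. Fcgr1 and Fcgr4 were highest on that array (265.9 and 781.3), and without it 1 of the 4 was higher in transitional lymphomas and the median was −0.04. Over all arrays Fcgr4 differed by 0.36 (SE 0.57) and Fcgr1 by 0.35 (SE 0.60), and Fcgr3 and Fcer1g changed by −0.27 (SE 0.28) and −0.25 (SE 0.30) per grade step.

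Other genes of lymphoid stroma and follicular dendritic cells did not all follow. Of 19 genes on the list 16 were measured, and 9 of them had their highest signal on transitional 2. Over all tested probe sets 8.28% were highest there. Only 6 of the 16 were bright enough to be tested, so the count includes dim genes. Coch, an extracellular matrix protein of follicular dendritic cells, read 1221 on transitional 2 and at most 97.4 elsewhere, and Pdgfrb, a receptor of pericytes and stromal precursors, 664.2 against at most 149.7. Icam1, an integrin ligand of many cell types, read 3312.5 against at most 1606. The complement receptor gene Cr2 and the IgE receptor gene Fcer2a, both markers of follicular dendritic cells that B cells also carry, read 273.5 and 258.5 on transitional 2, below their medians on the other arrays of 980.2 and 488.9. Between classes Cr2 differed by −1.75 (SE 0.70) and Fcer2a by −1.81 (SE 0.74), and per grade step by −0.64 (SE 0.28) and −0.46 (SE 0.32), with adjusted p-values of 0.999 or above in limma. On transitional 2 the 16 measured genes of the list lay a median of 1.20 above the median of the other arrays on the log2 scale. Of them, 6 were 4-fold or more above it, a size that 1.65% of all tested probe sets reached. Among the follicular dendritic cell markers named here, Coch was high on transitional 2 while Cr2 and Fcer2a were not.

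Markers of several other cell types were also high on transitional 2. The sums below are led by the brightest genes of each list, and the counts include genes too dim to be tested. Macrophage (2.34), collagen and fibroblast (2.66), endothelial (0.84) and megakaryocyte (1.39) lists also had their highest score there. A score is the mean log2 deviation of a list's tested genes. For reference, transitional 2 was the highest array for 8.28% of all tested probe sets. The summed signal of 11 macrophage marker genes was 31146 there, between 2978 and 10259 in marginal lymphomas and between 1916 and 4360 in the other transitional ones. The macrophage list had 6 of 11 genes highest on transitional 2, among them Csf1r, the brightest, at 10089 against at most 4835. Vsig4 and Cd163, which were not bright enough to be tested, were at 4.7 and 8.5 there. The summed signal of 11 collagen and fibroblast genes was 7426 on transitional 2, between 323.8 and 695.9 in marginal and between 271.4 and 858.2 in other transitional lymphomas, with 9 of 11 genes highest there. Col1a2 read 1741 against at most 116.4, and Col6a2, the brightest of the 3 tested, 184.7 against at most 172.2. The 12 endothelial genes summed to 2310 on transitional 2, against 891.2 to 1634 and 705 to 1107, and 8 of 12 were highest there. Only 3 of the 12 were bright enough to be tested. Plvap, a protein of fenestrated endothelium, read 572.3 on transitional 2 against at most 75.8 elsewhere. Cdh5, Tek and Emcn were at 35.6, 38.3 and 36.2 on transitional 2, and like Plvap were not bright enough over the arrays to be tested. The brightest tested endothelial gene, Pecam1, was not raised, at 547.3 against a median of 522. Megakaryocyte genes summed to 5598 against 816.7 to 2896 and 587.9 to 2849, with Pf4, the brightest, at 1963 against at most 1049. The part of these cells in the signals of Cxcl13, Madcam1, Vcam1, Clu and Mfge8 was not tested, and in bulk RNA a larger number of stromal cells and more RNA in each cannot be told apart.

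The 9 measured B cell genes summed to 44239 there, within the range of the others, and were low on transitional 4 and transitional 5, at 10045 and 6577, against 23070 to 83898 in marginal lymphomas. The markers of the labelled cell type were thus weakest on transitional 4 and 5. Ms4a1, the B cell gene with the highest signal, read 18155 on transitional 2 against a median of 16079, while Ebf1 and Cd72 read 385.2 and 305.2 there against medians of 1056 and 1318. Erythroid genes summed to 5239 on transitional 2, between 14827 and 43159 in marginal lymphomas, and to 1053 and 4051 on transitional 1 and 3 but 54899 and 48352 on transitional 4 and 5, with Alas2 at 2232 on transitional 2 against a median of 10430. T cell genes summed to 10913 on transitional 2 and to 19783 on transitional 1, with Cd3d at 4670 and 8923. Granulocyte genes summed to 44783 on transitional 2, within the range of the others, with S100a8 at 20439. Dendritic cell genes summed to 2788 there, against 407.5 to 1759 and 316.8 to 1653, with 2 of 8 genes highest, Fscn1 (1578 against at most 1060) and Itgax (892.4 against at most 566). By score the dendritic list was not highest on transitional 2 (0.66), with marginal 2 and marginal 4 both at 0.78.

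**Figure D3:**
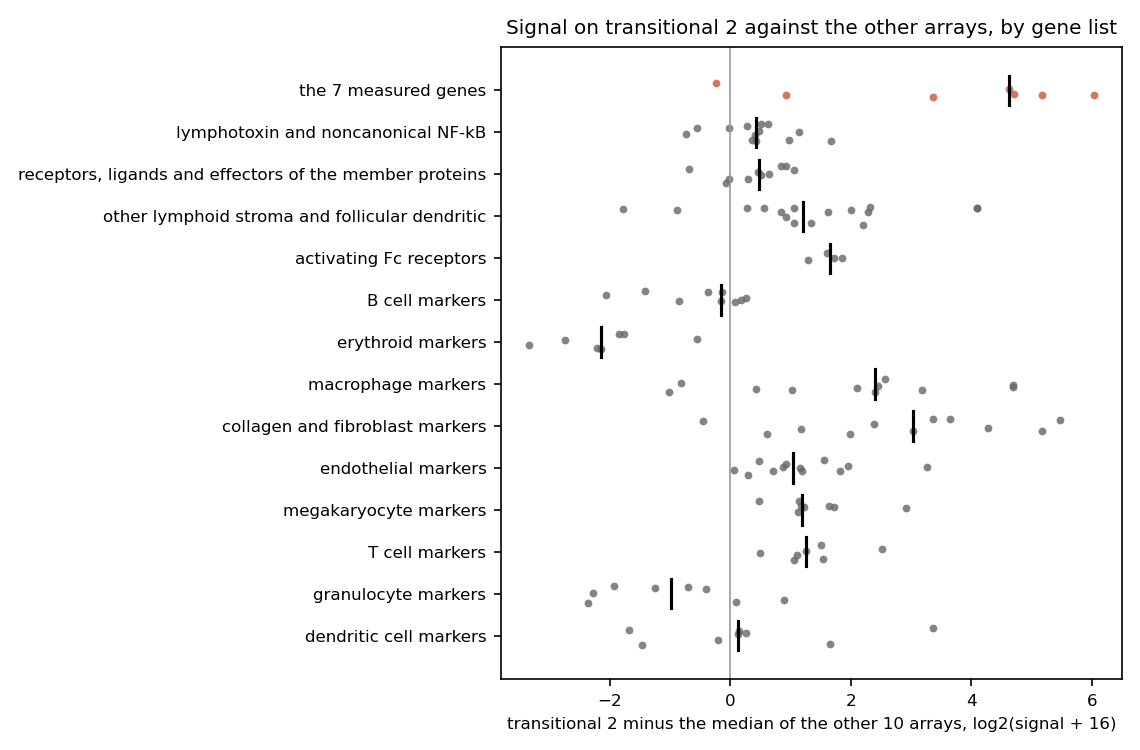
Signal on transitional 2 minus the median of the other 10 arrays, in log2(signal + 16), for the brightest probe set of each measured gene, with 1 row for the 7 genes described here and 1 for each list. Points are genes and black bars medians. The lists with the highest medians are collagen and fibroblast (3.04) and macrophage (2.40), the lymphotoxin list lies at 0.44 and the erythroid list at −2.15.

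Across the 11 arrays, each gene was compared with the score of 9 marker lists (the mean log2 deviation of the list's tested genes), in 63 relations with two-sided permutation tests of 100000 resamples. The genes were chosen from these signals, several for being high on transitional 2, so a p that rests on that array is no independent evidence. None of the 63 passed an adjusted p of 0.05 for both Pearson's r and Spearman's rho. Mfge8 passed by r alone, with collagen and fibroblast genes (r = 0.96, p = 0.00056, adjusted p = 0.0353; rho = 0.74, p = 0.0129, adjusted p = 0.159). Its r was 0.63 without transitional 2 and 5, the arrays farthest from the median, 0.72 without transitional 2 and 0.61 within the 6 marginal lymphomas. The score uses 3 tested genes, and with all 11 measured collagen and fibroblast genes in it this relation no longer passed. The closest list by p was also collagen and fibroblast genes for Clu (r = 0.95, permutation p = 0.00604, adjusted p = 0.0634; rho = 0.63) and for Cxcl13 (r = 0.88, permutation p = 0.0115, adjusted p = 0.0902; rho = 0.46). Without transitional 2 and 5 these were r = 0.40 and r = 0.15, so they rest on those arrays. For Vcam1 the closest list was macrophage genes (r = 0.85, permutation p = 0.00263, adjusted p = 0.0603; rho = 0.54), with r = 0.61 without transitional 2 and 0.23 without transitional 2 and marginal 2. Endothelial genes were about as close to Vcam1 (r = 0.85, permutation p = 0.00287, adjusted p = 0.0603) and closer by rank (rho = 0.69). Megakaryocyte genes followed (r = 0.78, permutation p = 0.00385, adjusted p = 0.0606; rho = 0.66). Without transitional 2 these r were 0.62 and 0.61.

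Some relations had a part that did not rest on transitional 2, among them those of Fcgr2b, Mfge8 and Madcam1. Vcam1 also had such relations. Without transitional 2 its r was 0.79 with erythroid genes and −0.67 with collagen and fibroblast genes. Over all arrays these were 0.215 and 0.58, so the second changed sign. Fcgr2b was closest to B cell genes (r = 0.76, permutation p = 0.00508, adjusted p = 0.0634; rho = 0.74, adjusted p = 0.159), with r = 0.76 without transitional 2, 0.65 without transitional 4 and 5 and 0.61 within marginal lymphomas. Dendritic cell genes were nearly as close to Fcgr2b (r = 0.70, permutation p = 0.0130, adjusted p = 0.0911; rho = 0.54). Their r was 0.76 without transitional 2 and 0.81 within marginal lymphomas. Mfge8 ran with B cell genes by rank (rho = 0.71, permutation p = 0.0179, adjusted p = 0.159) but not by r (0.31). Other lists had a like rho with Mfge8: collagen and fibroblast (0.74), dendritic cell (0.70), T cell (0.67) and erythroid genes (−0.70). Without transitional 2 the relation of Mfge8 with B cell genes had r = 0.88 and rho = 0.95, and r was 0.86 within the 6 marginal lymphomas. The adjusted permutation p-values without transitional 2 were 0.00945 and 0.00693 over the 63 relations of that setting. Over the arrays without transitional 4 and 5, the farthest from the median B cell score, its r was −0.14 with transitional 2 kept in. Mfge8 was chosen from these signals, and leaving out transitional 2 was among many settings tried. Over all arrays no relation passed both thresholds, so these p-values are no independent evidence. Madcam1 was lower where the erythroid score was higher (rho = −0.79, permutation p = 0.00495, adjusted p = 0.159; r = −0.64), with r = −0.80 without transitional 2 and −0.62 within marginal lymphomas. Without transitional 1 and 4, the arrays farthest from the median erythroid score, r was −0.62. Other lists were about as close to Madcam1. Collagen and fibroblast genes had r = 0.91 and rho = 0.66, with r = 0.43 without transitional 2. T cell and dendritic cell genes had rho = 0.74 and 0.70. Their r was 0.63 and 0.48 without transitional 2, and 0.05 and 0.12 within marginal lymphomas. Outside transitional 2 the Madcam1 signals were low, from 24.7 to 123.2, and would not pass the filter. Transitional 1, the highest of these, also had the lowest erythroid score (−3.33). Ltbr had its smallest p with macrophage genes (r = 0.56, permutation p = 0.0655, adjusted p = 0.229; rho = 0.45).

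**Figure D4:**
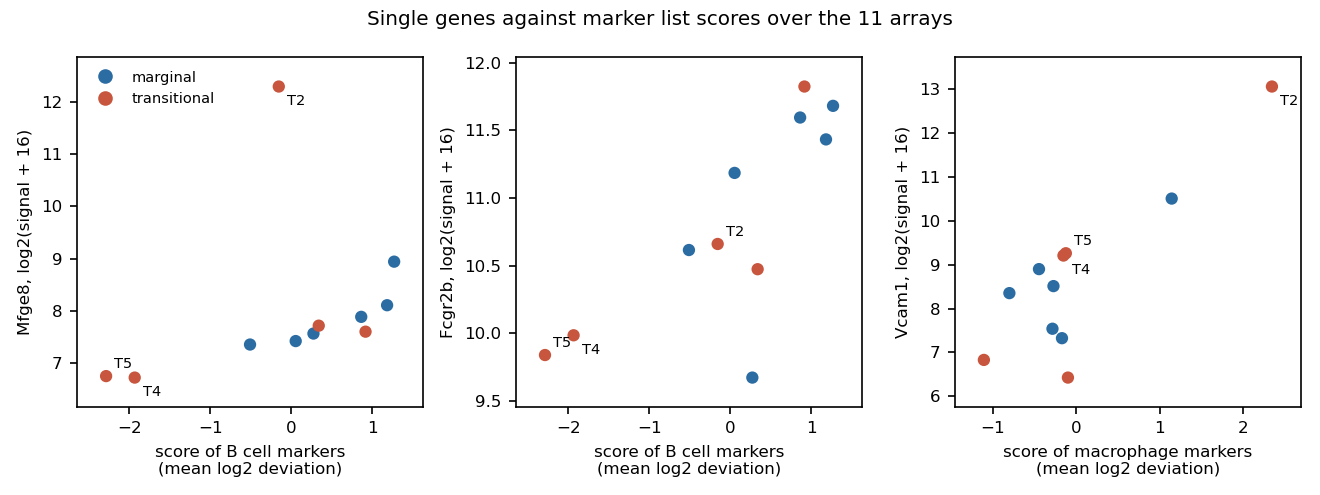
Log2(signal + 16) of Mfge8, Fcgr2b and Vcam1 against the score of a marker list, 1 point for each of the 11 arrays, with transitional 2, 4 and 5 labelled. Mfge8 follows the B cell score on the 10 arrays other than transitional 2 (r = 0.88), which stands far above them. Fcgr2b follows the B cell score with transitional 2 among the other arrays (r = 0.76), and Vcam1 is highest on transitional 2, where the macrophage score is also highest. The endothelial and megakaryocyte scores, not plotted, are highest there too.

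Among the 7 genes themselves correlations over the 11 arrays are given as a description, since the genes were chosen on these values. Clu and Mfge8 had r = 0.90 and rho = 0.26, with r = 0.16 without transitional 2. Cxcl13 and Clu had r = 0.83, and −0.05 without transitional 2. Mfge8 and Madcam1 had r = 0.90 and rho = 0.62, with r = 0.42 without transitional 2. Clu and Ltbr had r = 0.66 and rho = 0.65, and r = 0.66 without transitional 2 but 0.35 without marginal 1 and transitional 2.

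The genes most like each member over the 11 arrays, by Pearson's r with its brightest probe set among 7733 genes, were mostly genes that also peaked on transitional 2. Cxcl13 was closest to Bgn (r = 0.93), Id2 (0.91) and Slc39a1 (0.91), and Clu to Mmp14 (0.98), Col1a2 (0.96) and Acp2 (0.95). Bgn, a matrix proteoglycan, read 1015 on transitional 2 and at most 120.5 elsewhere, and Mmp14, a membrane metalloproteinase, 1172 and at most 146.5. Mfge8 was closest to Pla2g2d (0.98), P2ry14 (0.97) and Coch (0.96), and Madcam1 to Pla2g2d (0.92), P2ry12 (0.92) and Ubd (0.92). Pla2g2d, a secreted phospholipase, read 2732 on transitional 2 and at most 180.9 elsewhere. Vcam1 was closest to Clec4n (0.92), C1qc (0.92) and C1qa (0.89), genes of macrophages and other myeloid cells that, like Vcam1, were second highest on marginal 2. Fcgr2b was closest to Plekho1 (0.91), Tspan17 (0.89) and Klk1 (0.89), and Ltbr to Rnf149 (0.94), Gpr35 (0.93) and Slc11a1 (0.92), which were high on marginal 1 and transitional 2 like Ltbr. Without transitional 2, Plekho1 stayed among the closest 3 for Fcgr2b and Rnf149 and Gpr35 for Ltbr, while Cxcl13, Clu, Mfge8, Madcam1 and Vcam1 shared none of their closest 3 genes with the full set.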

How the data were processed

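Total RNA of 6 marginal and 5 transitional lymphomas was hybridised to 1 Affymetrix array each. The authors deposited array intensities, linear MAS5 signals per the submitters' processing notes and these were analysed unchanged. For MAS5, a version number was not given in the sources used here. Every array is scaled to 1 target, so that a shift shared by most genes would be hidden. No batch record was used, and the number of arrays limits the precision.

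Of 22690 probe sets 64 controls were left out. Signals were analysed as log2(signal + 16), and the upper 60% by mean log2 value over all arrays (13576) were tested with limma 3.58.1 in R 4.3.3 (lmFit, eBayes with trend, two-sided, Benjamini-Hochberg adjusted p 0.05). The model was tested on simulated data. Spleen grade was ranked from 1 to 5. Probe sets were named from the platform annotation (20380 with 1 gene, 691 with several, 1555 with none), updated through Entrez identifiers to RefSeq GRCm38.p6. Genes with several probe sets were read by the one with the highest mean log2 value. Promoter sequences are from RefSeq.

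Genes named in the text are the members, the 3 genes most correlated with each, the 2 genes of each pathway list with the smallest class p and the 2 with the smallest grade p, the brightest tested gene of each marker list, and each member's closest list. Stroma, macrophage, endothelial and other list genes named beyond this rule (Pdgfrb, Icam1, Vsig4, Cd163, Cdh5, Tek, Emcn, Plvap, Fscn1, Lta, Birc2, Tnfrsf1a, Ebf1 and Cd72) were picked after their values were seen. The members and lists were chosen with earlier results of these data known. Offsets, scaling, filters, array weights, a replicate block, single arrays left out and the animals that failed to nest were tried as alternatives. Scores over all measured list genes, and list sums and most similar genes without transitional 2, pathway list differences without single arrays and the filter without transitional 2 were added after seeing the data.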

Additional observations from a re-analysis of the deposited data

Results flagged for a closer look

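Within a class, an array was singled out when its gap to the nearest other array was a large enough part of the class's whole range (Dixon's criterion at the 95% level, applied to log2 values of 50 groups, 32 of them for probe sets of the members). Chance flags about 1 in 20 groups, and 10 were found. The members were chosen with these signals in view, so their flags on transitional 2 restate what chose them. Transitional 2 stood above the other transitional lymphomas for all 4 Clu probe sets, with gaps of 0.8472 (1454849_x_at), 0.8066 (1437458_x_at), 0.8256 (1437689_x_at) and 0.8408 (1418626_a_at) of the range. It did so too for Mfge8 (0.8216), for the brightest Cxcl13 probe set (0.7334) and for the score of collagen and fibroblast genes (0.7484). Vcam1 and Madcam1, although highest on transitional 2, did not reach the criterion there.

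Fcgr2b (1451941_a_at) was low on marginal 6 among the marginal lymphomas (0.6852), the sample with paralysis. Marginal 2 had a high macrophage score (0.6759), the array on which Vcam1 was second highest. Marginal 5 had a low endothelial score (0.6375) over the 3 tested genes of that list. Over all 12 measured endothelial genes its score was −0.09 and not the lowest, with marginal 3 at −0.15 and marginal 6 at −0.48.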

How the results depend on the processing

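The counts of probe sets called by class, of probe sets called by grade, and of pathway list genes called between classes stayed at 0 in each alternative run. The exception was the grade trend with class in the model, where leaving out 1 array gave 0 to 1145 calls: 1145 of 13576 without transitional 3, 1 without transitional 1 and 0 otherwise. The 1145 held 2 of the 31 tested pathway list genes, no larger a share than among all tested probe sets, and 0 probe sets of the members. Relations of members with marker lists past both thresholds were 0 to 1 when 1 array was left out: Mfge8 with collagen and fibroblast genes without marginal 2, and Mfge8 with B cell genes without transitional 2. Vcam1 also changed sign between classes with array weights and with only the animals that failed to nest (−0.55), and Ltbr in the replicate block and without marginal 6. The sample number shared by the classes did not pair them (correlations of deviations between −0.45 and −0.09 over 5 pairs), and no transitional array correlated best with the marginal array of its number. With the replicate block 0 probe sets were called, and the class difference was 1.07 for Cxcl13 and −0.74 for Fcgr2b. Array signals give no read depth. Madcam1 passed the filter only with transitional 2, as did the list genes Coch, Fcgr1 and Pax5. With 1 array for each lymphoma there was no technical replicate.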

Other observations

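Beside the members, transitional 2 led every other array by at least 4-fold in 30 other genes, picked here after their values were seen. Among them were chemokines and complement genes. Cxcl9, a chemokine for activated T cells, read 17543 on transitional 2 against at most 704 elsewhere, Cxcl10 1682 against 262, and Ubd, a ubiquitin-like modifier, 2614 against 143.6. Cfb, complement factor B, read 5997 against 212.2 and C1qa, a subunit of complement C1q, 8060 against 1203. Gzmb, the cytotoxic protease granzyme B, read 4333 against 611.5, and Ccl8, a chemokine of macrophages, 1548 against 153.7. Igfbp7, a matrix-associated binding protein, read 3561.5 against 272.2. These are signals of 1 array with no replicate, and no test applies to them.

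Marginal 5 was the next highest array for 2 of the 4 Clu probe sets, Mfge8, Coch and Pla2g2d, at 476.1 for Mfge8, 97.4 for Coch and 180.9 for Pla2g2d. Marginal 6 was next for both Cxcl13 probe sets.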
